A study of Homo sapiens with 4 samples.

Results

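The distal long arm of human chromosome 19, band 19q13.4, carries a cluster of zinc finger genes, and 42 of them, listed by symbol, were followed through a demethylating treatment of LNCaP cells. Array features annotated with these symbols measured 39 of the 42 genes, through 66 features, among 18334 genes and 31332 features measured in all. ZNF460, ZNF470 and ZNF749 had no feature and were not analysed here. LNCaP is an established human prostate cancer line that responds to androgen and was grown from a nodal metastasis. After 24 h without serum the cells received 5-azacytidine at 1 µM, or dimethyl sulphoxide (DMSO) as the control, and were kept so for 48 h or 24 h. On each 2-colour Agilent array RNA of treated cells (Cy5) was hybridised with RNA of DMSO cells of the same time (Cy3), with 2 arrays at 48 h and 2 at 24 h and no dye swap. The 2 replicates of a time are not said to come from separate cultures, so the p-values measure the spread between arrays, which may be technical. Every value below is a log2 ratio of azacytidine over DMSO, so that 1 is a doubling and -1 a halving, and a dye effect and a treatment effect cannot be told apart. The log base and the direction of the deposited ratios rest on the scanner software's convention and the labelled dyes. Ratios give no expression level, so the defining markers of LNCaP could not be checked and the levels of the zinc finger genes are unknown. In such bulk RNA, fewer cells that express a gene and less of its RNA per cell cannot be told apart.

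Most of these genes encode proteins that join a KRAB domain to an array of C2H2 zinc fingers. The fingers bind DNA, many of them within transposable elements, and the KRAB domain recruits the corepressor TRIM28, which brings the histone methyltransferase SETDB1, HP1 proteins and DNA methylation. The genes arose by repeated tandem duplication, so that neighbours often resemble one another in sequence. Promoters of several of them, ZNF154, ZNF671, ZNF582 and ZNF132 among them, are known to be methylated in carcinomas. 5-azacytidine is a cytidine analog that, once built into DNA, binds DNA methyltransferases covalently, so that methylation is lost as cells divide.

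Since DNA methylation stands mostly at CG dinucleotides, the sequences upstream of the genes were examined. They were read from the RefSeq promoter table of assembly GRCh38.p14, which held 37 of the 42 genes. ZFP28, ZNF211, ZNF417, ZNF471 and ZNF552 had no entry. The 250 bases before the annotated start held a median of 17 CG dinucleotides over the 34 measured genes, from 8 to 35, and a median of 11 over all 35116 promoters of the table. At least 10 CG stood in 31 of the 34 (91.2%), against 52.2% of all promoters. The upstream sequences of the gene with the highest ratio at 48 h, ZNF256, and of the gene with the lowest among those with an entry, ZNF582, are shown 5′ to 3′ with each CG in capitals. Both lie on the minus strand of GRCh38.p14, ZNF256 at chr19:57947707-57947956 and ZNF582 at chr19:56393535-56393784.
ZNF256: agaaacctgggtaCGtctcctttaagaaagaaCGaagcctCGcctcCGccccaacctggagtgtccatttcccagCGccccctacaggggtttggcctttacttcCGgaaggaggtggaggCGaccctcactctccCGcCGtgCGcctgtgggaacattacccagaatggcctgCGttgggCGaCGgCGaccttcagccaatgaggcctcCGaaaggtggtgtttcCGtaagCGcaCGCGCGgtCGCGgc
ZNF582: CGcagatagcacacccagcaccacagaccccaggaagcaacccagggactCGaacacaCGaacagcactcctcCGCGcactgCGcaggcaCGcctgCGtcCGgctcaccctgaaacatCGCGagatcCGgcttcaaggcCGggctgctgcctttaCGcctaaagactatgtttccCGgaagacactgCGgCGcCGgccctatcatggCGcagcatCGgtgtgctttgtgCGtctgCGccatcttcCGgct
ZNF256 held 22 CG and ZNF582 held 23, and their ratios at 48 h were 1.09 and -1.74. Across the 34 genes, which share arrays and related sequence and are not independent, the CG count correlated with the ratio with Pearson r = -0.13 and Spearman rho = -0.25 at 48 h and with r = 0.04 and rho = 0.08 at 24 h.

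A further feature of these upstream sequences was an ETS-type motif, CCGGAAGT on either strand (ACTTCCGG on the reverse), which contains a CG. It stood in 14 of the 34 measured genes (41.2%), against 3.42% of all promoters of the same 250 bases. It is shown in capitals for the 4 genes that held it and passed a test described below, as the windows of ZNF814 (chr19:57889046-57889073), ZNF256 (chr19:57947839-57947866), ZNF606 (chr19:58002856-58002883) and ZNF132 (chr19:58440154-58440178), all on the minus strand of GRCh38.p14.
ZNF814: atgggtccggACTTCCGGcgccctctgg
ZNF256: tttggcctttACTTCCGGaaggaggtgg
ZNF606: ctgcccgacgCCGGAAGTgcccgcctgg
ZNF132: gagaggcgggACTTCCGGcgccgcc
The motif began 26, 150, 53 and 15 bases before the annotated start in these genes, in that order. The 14 genes with the motif had a median ratio of 0.23 at 48 h and -0.24 at 24 h, and the 20 without it -0.08 and -0.20. Of these 4, ZNF814 and ZNF256 were called higher and ZNF132 lower at 48 h, and ZNF606 passed at 24 h and not at 48 h. An NRF1-type motif (GCATGCGC) stood in 0 of 34 and in 2.63% of all promoters, a CRE (TGACGTCA) in 1 of 34 (2.94%) and 1.65%, and an E-box (CACGTG) in 2 of 34 (5.88%) and 6.34%. Both strands were searched and no motif contained another.

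At 48 h of azacytidine the zinc finger genes lay on both sides of 0. The mean ratio was above 0 for 21 of 39 genes and below 0 for 18, with a median of 0.10, against 0 over all genes, and medians of 0.07 and 0.14 on the single arrays. Both arrays were above 0 for 19 genes (48.7%), compared with 35.5% of all genes. The means ranged from -2.62 ± 0.22 for ZNF417 to 1.09 ± 0.22 for ZNF256 (SD, n = 2 each), and 7 genes differed at least 2-fold (17.9%), compared with 27.8% of all genes. At 24 h most of the genes had ratios slightly below 0. The mean was negative for 26 of 39 genes, with a median of -0.23, against 0 over all genes, and medians of -0.21 and -0.25 on the single arrays. Both 24 h arrays were below 0 for 24 of the 39 genes (61.5%), compared with 36.7% of all genes. ZNF417 was the 1 gene of 39 that differed at least 2-fold at 24 h (2.56%), compared with 17.3% of all genes.

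**Figure D1:**
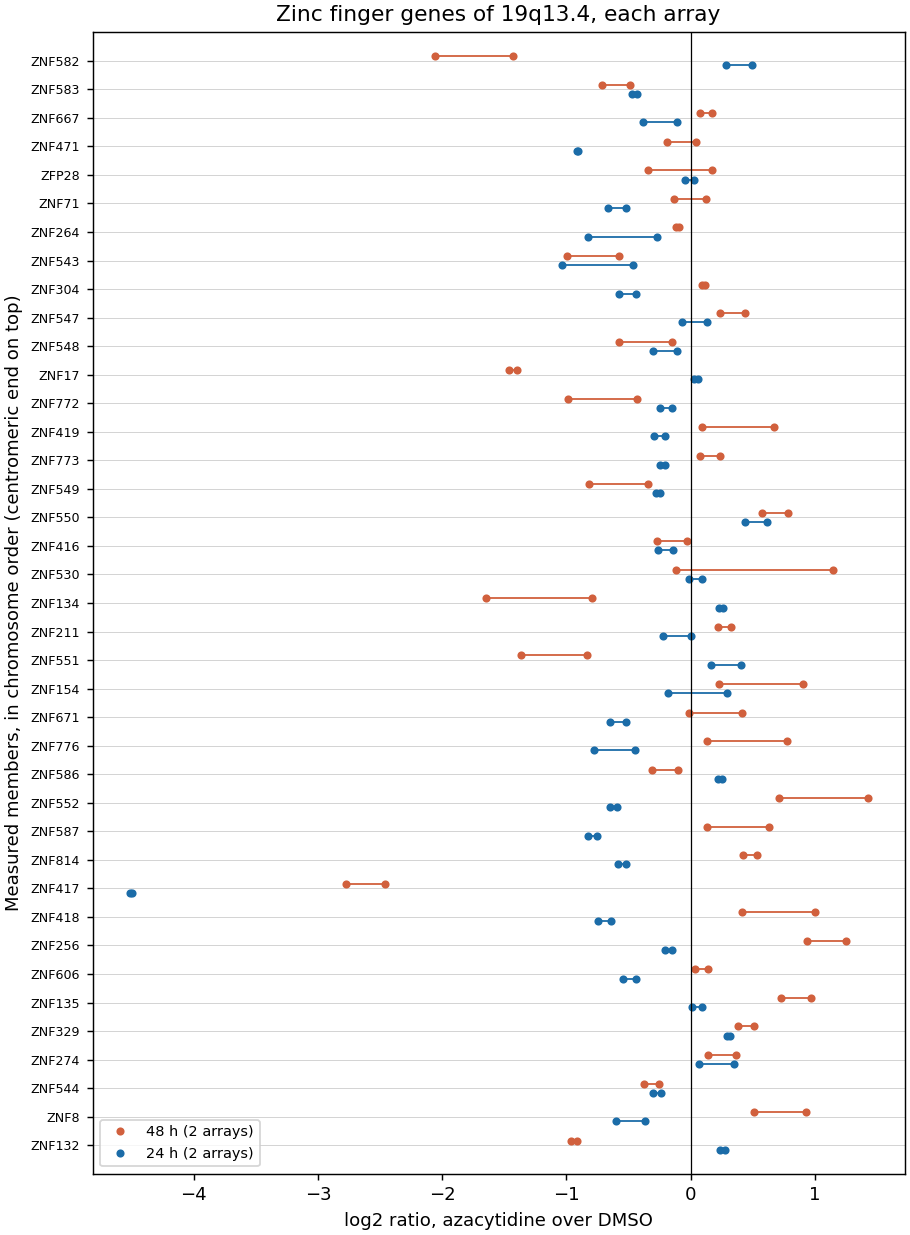
Log2 ratio of azacytidine over DMSO on each array (x axis) for the 39 measured zinc finger genes in chromosome order (y axis); orange points are the 2 arrays at 48 h, blue points the 2 at 24 h, and lines join arrays of one time. ZNF417 stands alone at -4.52 and -4.50 at 24 h, and 24 of 39 genes have both 24 h arrays below 0.

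ZNF417, whose protein binds endogenous retroviruses of the HERV-K family in human cells, read -2.77 and -2.46 at 48 h, beside -4.52 and -4.50 at 24 h. All 4 arrays were far below 0, and the 24 h arrays were the lower. Its mean of -2.62 at 48 h was a 6.14-fold lower signal in azacytidine than in DMSO (limma adjusted p = 0.00767). Its mean of -4.51 ± 0.011 (SD, n = 2) at 24 h was 22.8-fold lower, rank 1 from the bottom of 18334 genes (limma adjusted p = 0.0126). A single feature measured the gene, so no other feature checks this value. ZNF587, a close paralog of ZNF417 that binds the same elements, read 0.13 and 0.63 at 48 h and -0.76 and -0.83 at 24 h, and passed no test (limma adjusted p = 0.166 at 48 h and 0.0635 at 24 h). The 4 features of ZNF587 lay between -1.29 and 0.03 at 24 h, all above the ZNF417 value. A further paralog outside the listed genes, ZNF587B, read -0.78 and -0.91 at 48 h and 1.04 and 0.67 at 24 h, and passed the test at both times (limma adjusted p = 0.0302 and 0.0406). The paralogs thus differed in direction, and the part of cross-hybridisation between them was not tested.

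At a threshold of 0.05 on the limma adjusted p, 12 of 39 genes passed at 48 h, or 30.8%, compared with 38.8% of all genes. Of these 5 were higher (12.8%, with 18.2% of all genes) and 7 lower (17.9%, with 20.7% of all genes). ZNF256 read 0.93 and 1.25 at 48 h, a 2.13-fold higher signal in azacytidine than in DMSO (limma adjusted p = 0.0168), and -0.21 and -0.15 at 24 h. ZNF135, a gene with a promoter commonly methylated in carcinomas, read 0.72 and 0.97 at 48 h and 0.01 and 0.09 at 24 h (limma adjusted p = 0.0178 at 48 h). For both genes the 48 h arrays stood above 0 and above both 24 h arrays. ZNF550 read 0.78 and 0.58, ZNF814 0.53 and 0.42 and ZNF329 0.38 and 0.51 at 48 h, with limma adjusted p-values of 0.0257, 0.0196 and 0.0211.

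ZNF582, whose promoter methylation is used as a marker in cervical neoplasia, read -1.43 and -2.06 at 48 h, a 3.35-fold lower signal (limma adjusted p = 0.0221), and 0.50 and 0.28 at 24 h. ZNF132, methylated in prostate carcinomas, read -0.92 and -0.96 at 48 h and 0.28 and 0.24 at 24 h, and passed the test at both times in opposite directions (limma adjusted p = 0.00767 at 48 h). ZNF583 read -0.72 and -0.49 and ZNF544 -0.38 and -0.25 at 48 h (limma adjusted p = 0.0252 and 0.0366). The features of ZNF544 averaged 0.07, -0.39 and -0.62 at 48 h, and none passed by itself (limma adjusted p over all features = 0.675, 0.101 and 0.0575). By gene mean all 4 of these genes were thus below 0 on both 48 h arrays, whereas ZNF582 and ZNF132 were above 0 at 24 h. ZNF17 (-1.40 and -1.46 at 48 h, 0.06 and 0.03 at 24 h) and ZNF551 (-0.84 and -1.36 at 48 h, 0.17 and 0.41 at 24 h) were also called lower at 48 h, but each had features called in opposite directions, as described below. Without them 10 genes passed, 5 higher and 5 lower.

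The calls at 48 h depended on the 24 h arrays, whose replicates lay closer together. The median absolute difference between replicate arrays over the 39 genes was 0.26 at 48 h and 0.10 at 24 h, and over all genes 0.33 and 0.13. From the 48 h arrays alone, without 24 h replicate 1 and without 24 h replicate 2, limma called 0 of the 39 genes at 48 h (11 at an unadjusted p under 0.05 in each), and without 48 h replicate 1 it called 19 (48.7%, with 45.3% of all genes).

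At 24 h the test was passed by 9 of 39 genes, or 23.1%, compared with 24.3% of all genes. Of these 3 were higher (7.69%, with 14.3% of all genes) and 6 lower (15.4%, with 9.97% of all genes). When genes at 0 on all arrays were left out of the fit, 8 passed (20.5%), compared with 32.8% of all genes. Next to ZNF417 the lowest was ZNF471, a gene often methylated in carcinomas, with -0.19 and 0.04 at 48 h and -0.92 and -0.91 at 24 h (limma adjusted p = 0.0218 at 24 h). Its 3 features were all called lower at 24 h, at -0.69, -1.04 and -1.02. ZNF71 followed with 0.13 and -0.14 at 48 h and -0.67 and -0.52 at 24 h (limma adjusted p = 0.0478 at 24 h). Both genes were close to 0 on the 48 h arrays and below 0 on each 24 h array.

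The remaining genes that fell at 24 h were ZNF814, ZNF304 and ZNF606. ZNF814 read -0.59 and -0.52 at 24 h. ZNF304 read 0.12 and 0.09 at 48 h and -0.58 and -0.44 at 24 h. ZNF606 read 0.03 and 0.14 at 48 h and -0.55 and -0.44 at 24 h. Their 24 h arrays lay within 0.15 of each other, and their limma adjusted p-values at 24 h were 0.0238, 0.026 and 0.0298. The 3 genes that rose were ZNF550 with 0.62 and 0.44, ZNF329 with 0.32 and 0.29 and ZNF132 with 0.28 and 0.24 (limma adjusted p = 0.0493, 0.048 and 0.0381). None of these rises reached 2-fold. Without 24 h replicate 1, and without 24 h replicate 2, limma called 0 of the 39 genes at 24 h (6 and 5 at an unadjusted p under 0.05), the spread then coming from the 48 h arrays alone, and without either 48 h array it called 14 (35.9%, with 36.3% of all genes). When all arrays were scaled to the same spread 3 genes were higher and 13 lower (41% called, with 41% of all genes). After quantile normalization 2 were higher and 15 lower (43.6%, with 40.3%), and with each array centred on the genes not at 0 on all arrays 2 and 7 (23.1%, with 26%).

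The change between the times was tested directly as the difference of the ratios, 48 h minus 24 h. It passed for 10 of 39 genes (25.6%), compared with 23% of all genes, with 7 higher at 48 h than at 24 h (17.9%, with 9.83% of all genes) and 3 lower (7.69%, with 13.1% of all genes). The median difference was 0.38, against 0 over all genes. Both 48 h arrays lay above both 24 h arrays for 21 genes (53.8%), compared with 34.4% of all genes, and below them for 9 (23.1%), compared with 36.7%.

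The 7 genes whose ratio was higher at 48 h included ZNF417, which was far below 0 at both times and differed by 1.89 (limma adjusted p = 0.0273). The difference was 1.27 for ZNF256, 1.03 for ZNF814, 0.84 for ZNF471, 0.79 for ZNF135, 0.61 for ZNF304 and 0.58 for ZNF606, with limma adjusted p from 0.0262 to 0.0454. ZNF814 passed the test on opposite sides of 0, at 0.48 ± 0.081 at 48 h and -0.55 ± 0.048 at 24 h (SD, n = 2 each). ZNF304 and ZNF606 averaged 0.10 and 0.09 at 48 h and did not pass there. The 3 genes whose ratio was lower at 48 h were ZNF582, by -2.13, ZNF17, by -1.47, and ZNF132, by -1.19 (limma adjusted p = 0.0421, 0.0213 and 0.0225). Without either 24 h array limma called 0 differences among the 39 genes (8 at an unadjusted p under 0.05 in each case), and without 48 h replicate 1 it called 20 (51.3%, with 42.5% of all genes). It also called 20, of which 14 were higher, after scaling to the same spread (51.3%, with 36.1% of all genes) and after quantile normalization (51.3%, with 37.5%).

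**Figure D2:**
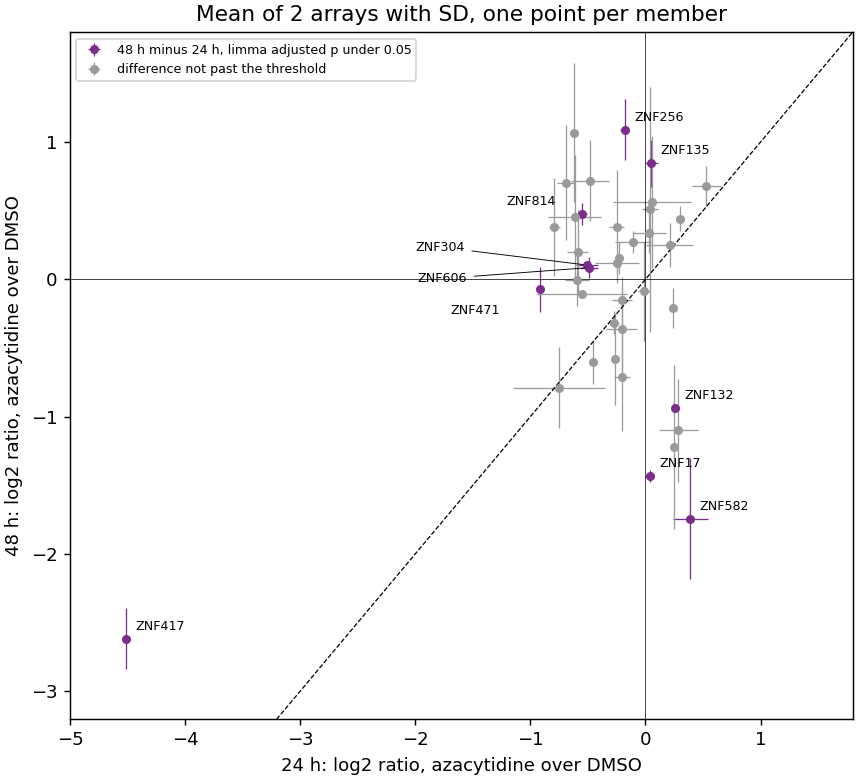
Mean log2 ratio of azacytidine over DMSO at 48 h (y axis) and at 24 h (x axis) for each of the 39 genes, with SD over 2 arrays; the dashed line marks equal ratios, and purple points passed the limma test of the difference. ZNF417 lies at -2.62 and -4.51, and ZNF582, ZNF17 and ZNF132 lie well below the line.

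In the average of both times 11 genes passed (28.2%), compared with 32.9% of all genes, 4 of them higher (10.3%, with 16.7% of all genes) and 7 lower (17.9%, with 16.2% of all genes). Without either 24 h array limma called 0 of them (10 at an unadjusted p under 0.05 in each case). At the single times, ZNF417 was called lower and ZNF550 and ZNF329 were called higher at 48 h and at 24 h. ZNF583 was called lower at 48 h and read -0.48 and -0.43 at 24 h, just outside the threshold (limma adjusted p = 0.0509). ZNF544 read -0.30 and -0.24 at 24 h (limma adjusted p = 0.0595). ZNF274, whose protein recruits SETDB1 to the ends of zinc finger genes in human cells, read 0.14 and 0.36 at 48 h and 0.07 and 0.35 at 24 h. All 4 arrays of ZNF274 were above 0, and it passed no test (limma adjusted p = 0.195 at 48 h and 0.287 at 24 h).

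The genes that passed none of these tests numbered 23, with ZNF274 and ZNF587 among them. Their means ran from -1.22 for ZNF134 to 1.07 for ZNF552 at 48 h, and from -0.79 for ZNF587 to 0.25 for ZNF134 at 24 h. ZNF154, whose promoter is methylated in many carcinomas, read 0.23 and 0.90 at 48 h and 0.30 and -0.18 at 24 h. ZNF671, another gene of that kind, read -0.01 and 0.42 at 48 h and -0.65 and -0.52 at 24 h. The arrays of one time lay on both sides of 0 for ZNF671 at 48 h and for ZNF154 at 24 h. Of the 2 features of ZNF154, 1 read 1.06 and 1.24 at 48 h and was called higher (limma adjusted p over all features = 0.0332). The other feature read -0.61 and 0.57 at 48 h and was not called. ZNF418 read 0.41 and 0.999 at 48 h and -0.64 and -0.74 at 24 h. ZNF8 read 0.51 and 0.93 at 48 h and -0.60 and -0.36 at 24 h. Both lay above 0 on the 48 h arrays and below 0 on the 24 h arrays and did not pass (limma adjusted p of the difference = 0.0566 and 0.0534). Closer to 0 at 48 h and 24 h were the means of ZFP28 at -0.09 and -0.01, ZNF416 at -0.15 and -0.20, ZNF211 at 0.27 and -0.11, ZNF547 at 0.34 and 0.03 and ZNF548 at -0.37 and -0.21. The 48 h mean of ZNF548 joins a feature at -1.25, called lower (limma adjusted p over all features = 0.0201), and a feature at 0.52, not called. It describes neither.

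Of the remaining genes, ZNF552 read 0.71 and 1.43 at 48 h and -0.60 and -0.65 at 24 h (limma adjusted p = 0.0511 at 48 h). ZNF776 averaged 0.45 at 48 h and -0.62 at 24 h, ZNF419 0.38 and -0.25, ZNF773 0.16 and -0.23, ZNF667 0.12 and -0.25 and ZNF530 0.51 and 0.04. These 6 had higher means at 48 h than at 24 h. ZNF134 read -0.80 and -1.65 at 48 h and 0.26 and 0.23 at 24 h (limma adjusted p = 0.0543 at 48 h). ZNF586 averaged -0.21 at 48 h and 0.24 at 24 h, ZNF772 -0.71 and -0.20 and ZNF549 -0.58 and -0.26, and these 4 had lower means at 48 h than at 24 h. ZNF264 had means of -0.11 at 48 h and -0.55 at 24 h, and ZNF543 read -0.999 and -0.58 at 48 h and -0.47 and -1.03 at 24 h, so that both were below 0 at both times.

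Several genes were measured by features that did not move together. Of the 19 genes with more than 1 feature, 10 had features over 1 apart at one time or both, and 9 of these 10 had a feature annotated to a sequence record other than a RefSeq transcript, compared with 3 of the other 9. In ZNF17 the feature of such a record, called a clone feature here, read -3.13 and -3.45 at 48 h and 0.57 and 0.55 at 24 h. Its RefSeq feature read 0.33 and 0.53 at 48 h and -0.45 and -0.50 at 24 h. The features were called in opposite directions at 48 h (limma adjusted p over all features = 0.00795 and 0.0389), so the gene's mean of -1.43 describes neither.

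ZNF551 showed the same arrangement, with its clone feature at -2.13 and -3.32 and its RefSeq feature at 0.45 and 0.59 on the 48 h arrays. The ZNF586 features were at -1.09 (called lower), 0.57 (called higher) and -0.11 at 48 h. For ZNF552 the clone feature averaged 2.32 at 48 h and -2.16 at 24 h, and the RefSeq feature -0.18 and 0.92. None of the ZNF552 features passed the test at either time. Which transcript or gene each feature reports was not tested. Among the 66 features 10 were called higher and 8 lower at 48 h, compared with 36.6% of all features called in either direction, and 2 were called higher and 9 lower at 24 h, compared with 21.4%.

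**Figure D3:**
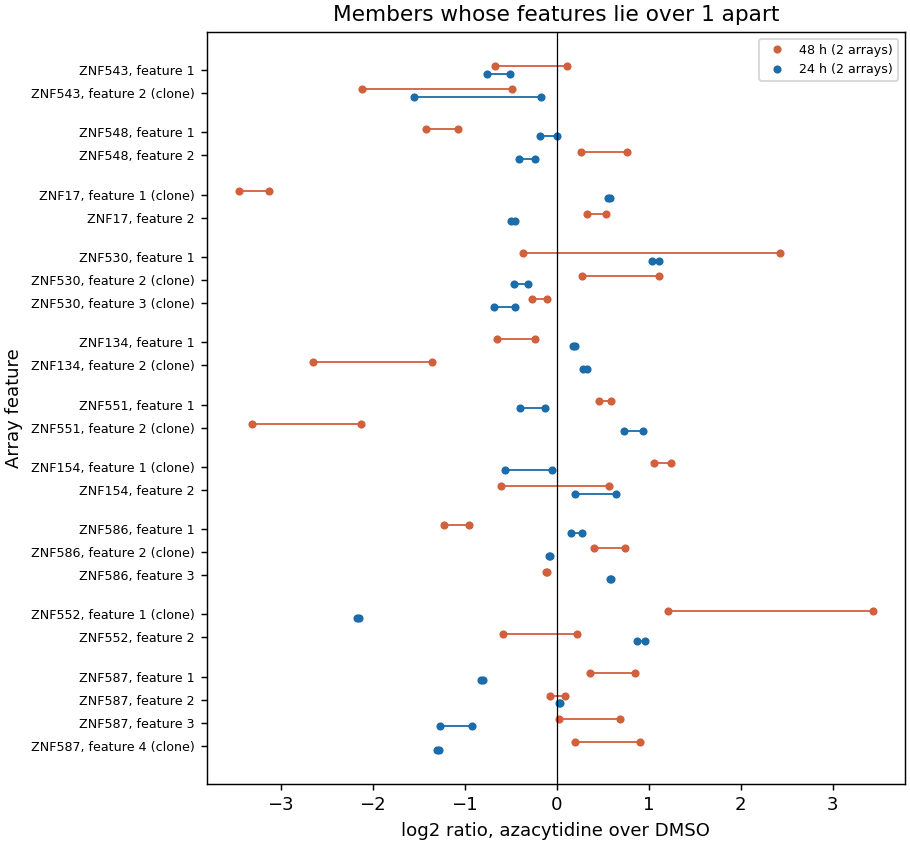
Log2 ratio of azacytidine over DMSO on each array (x axis) for the features of the 10 genes whose features lie over 1 apart (y axis, one line per feature, with features of non-RefSeq records marked clone); orange is 48 h and blue 24 h, 2 arrays each. The 2 features of ZNF17 lie on opposite sides of 0 at each time.

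For a grouping by promoter methylation, 17 of the 39 genes were listed as having promoters commonly methylated in carcinomas. The list was drawn up from general knowledge of the literature and not from methylation data. They are ZNF154, ZNF671, ZNF135, ZNF132, ZNF471, ZNF582, ZNF583, ZNF667, ZFP28, ZNF418, ZNF256, ZNF549, ZNF551, ZNF544, ZNF329, ZNF606 and ZNF304. Of these 17, 3 were called higher (17.6%, with 18.2% of all genes) and 5 lower (29.4%, with 20.7%) at 48 h. The 5 lower include ZNF551, whose features were called in opposite directions, and ZNF544, of which no feature passed by itself. At 24 h 2 were higher (11.8%, with 14.3% of all genes) and 3 lower (17.6%, with 9.97%). Their medians were 0.09 at 48 h and -0.25 at 24 h, beside 0.20 and -0.22 for the other 22 genes. DNA methylation itself was not measured.

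By position, from ZNF671 to ZNF606 lay 10 of the listed genes, a run singled out after its values were seen, among 12 measured genes in all. Of the 10, 8 had means above 0 at 48 h and 9 had means below 0 at 24 h. The other 29 listed genes had 13 and 17 such means, and all 18334 genes 8130 and 8099. In 9 of the 10 both 48 h arrays exceeded both 24 h arrays, the exception being ZNF586. This held for 12 of the other 29 listed genes and for 34.4% of all genes. As the run was picked from these values, its contrast with the other genes is no test of position. The run had medians of 0.42 at 48 h and -0.60 at 24 h, and the other listed genes -0.07 and -0.20. Neighbours within it were not all alike, since ZNF417 was below 0 at both times and ZNF586 averaged -0.21 at 48 h and 0.24 at 24 h. Of the 2 genes of the run that are not listed, ZNF587B averaged -0.85 at 48 h and 0.86 at 24 h, both called, and C19orf18 2.06 (called) and -0.16. The run includes close paralogs whose features may share sequence, a point that was not tested.

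Zinc finger genes elsewhere in the genome, taken by symbols that begin with ZNF, ZFP, ZSCAN, ZIM or ZKSCAN, also had medians below 0 at 24 h. The 185 zinc finger genes of chromosome 19 outside the interval spanned by the listed genes had a median of -0.02 at 48 h and -0.18 at 24 h, and 276 on other chromosomes had medians of -0.11 and -0.26. For a list of KRAB zinc finger genes mostly from the short arm of chromosome 19 (19p12, with ZNF10 of another chromosome among them), 26 of 34 were measured, with medians of -0.22 and -0.26. Of these 26, 2 were called higher (7.69%, with 18.2% of all genes) and 8 lower (30.8%, with 20.7%) at 48 h. At 24 h 0 were higher (14.3% of all genes) and 8 lower (30.8%, with 9.97%). The median difference between the times was 0.38 for the 39 genes. It was 0.18 for the other zinc finger genes of chromosome 19, 0.21 for those of other chromosomes and 0.06 for the 19p12 list. In the difference, 35 of the 185 were called higher at 48 h and 13 lower, and of the 276, 43 and 31. Of the 39 these were 7 and 3, and of all genes 9.83% and 13.1%. At 24 h 19.5% of the 185 and 18.8% of the 276 were called lower, beside 15.4% of the 39 and 9.97% of all genes. Called higher at 24 h were 4.32%, 7.61%, 7.69% and 14.3%, in that order. Within the interval itself, 9 other genes with such symbols had medians of 0.22 at 48 h and 0.15 at 24 h. A further 11 genes without such symbols, among them ZIK1 and PEG3, which also encode zinc finger proteins, had medians of -0.26 and -0.13. These sets were described by counts and medians and not tested against each other.

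**Figure D4:**
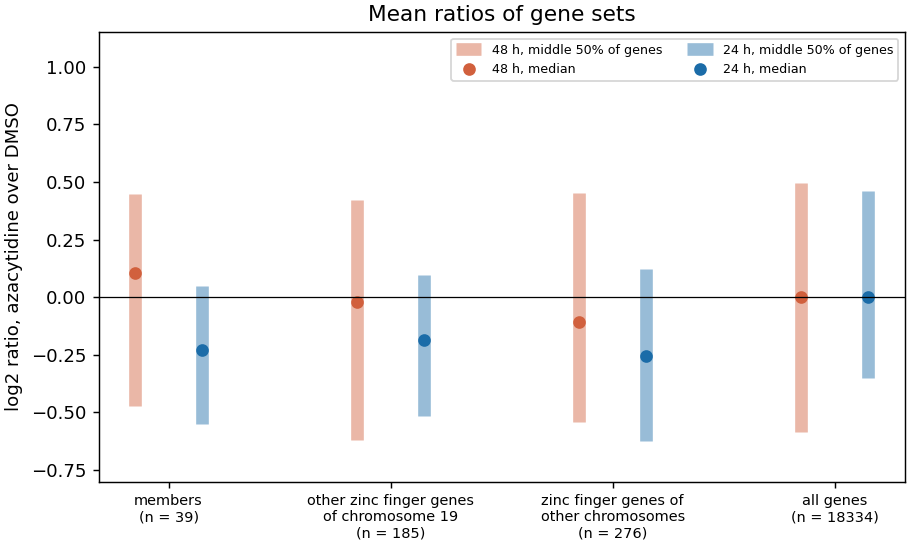
Medians (points) and middle 50% (bars) of the mean log2 ratio of azacytidine over DMSO (y axis) for the 39 listed zinc finger genes, other zinc finger genes of chromosome 19, zinc finger genes of other chromosomes and all genes (x axis); orange is 48 h and blue 24 h. At 48 h the listed genes are at 0.10, and at 24 h the medians of the 3 zinc finger sets lie between -0.26 and -0.18.

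Of a list of 38 corepressors and partners of KRAB zinc finger proteins and the silencing machinery they recruit, 37 were measured. ZFP57 and ZNF445, which are themselves zinc finger genes, are on this list and in its counts. Means were below 0 for 28 at 48 h (75.7%, with 47.2% of all genes) and for 28 at 24 h (75.7%, with 44.2%), and 19 genes were below 0 at both times. At 48 h 1 was called higher (2.7%, with 18.2% of all genes) and 15 lower (40.5%, with 20.7%). At 24 h 3 were higher (8.11%, with 14.3% of all genes) and 8 lower (21.6%, with 9.97%). In the average of both times 1 was higher (2.7%, with 16.7% of all genes) and 18 lower (48.6%, with 16.2%). The list's median was -0.42 at 48 h and -0.45 at 24 h, against 0 over all genes. TRIM28, the central corepressor, read -1.69 and -1.52 at 48 h and 0.72 and 0.53 at 24 h (limma adjusted p = 0.0096 and 0.0376). Its features were unequal, at -2.64 and -0.57 at 48 h and at 1.44 and -0.19 at 24 h, so that only at 48 h were both below 0. SETDB1 read -0.32 and 0.05 at 48 h and -0.64 and -0.64 at 24 h and passed no test (limma adjusted p = 0.435 and 0.0548).

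KDM1A, a histone demethylase, read -1.97 and -1.77 at 48 h and 0.68 and 0.82 at 24 h, and CHD4, a chromatin remodeller of the NuRD complex, -1.26 and -1.11 at 48 h and 0.25 and 0.27 at 24 h. Both, like the TRIM28 mean, were below 0 at 48 h and above 0 at 24 h. DNMT1, the maintenance methyltransferase that the drug traps, read -0.72 and -0.65 at 48 h and -0.66 and -0.58 at 24 h, below 0 on all 4 arrays. Its partner UHRF1 averaged -0.39 at 48 h and -0.57 at 24 h, the chromatin remodeller ATRX -0.91 and -0.57, and the histone chaperones RBBP4 and RBBP7 -1.48 and 0.02, and -1.30 and -0.98. The HP1 gene CBX1 averaged -0.04 at 48 h and -0.97 at 24 h, and the histone methyltransferase genes EHMT2 and SUV39H1 -0.69 and -0.54, and -0.99 and -0.22.

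Also lower in the average, with means at 48 h and 24 h, were HDAC2 (-0.84 and -0.60), MORC3 (-0.42 and -0.91), SUMO2 (-1.15 and -0.26) and RIF1 (-1.08 and 0.00), as well as TASOR (-0.50 and -0.09), a subunit of the HUSH silencing complex. RESF1 read -0.23 and 0.05 at 48 h and -0.93 and -1.08 at 24 h. ZNF445, a zinc finger gene that protects imprinting, was at -0.92 at 48 h and -1.12 at 24 h. The 1 gene called higher in the average was ZFP57, at -0.29 at 48 h and 1.30 at 24 h. It encodes a zinc finger protein that keeps imprinted regions methylated. At 48 h alone the 1 gene called higher was MPHOSPH8. It averaged 0.52 there and, called lower, -1.12 at 24 h (limma adjusted p = 0.0498 and 0.0242). Means at 48 h were above 0 for 9 genes. The highest were DNMT3B (0.95, and -1.09 at 24 h) and MTA2 (0.87, and -0.73 at 24 h), neither called at either time. Of the 37 genes, 26 had several features, and 15 of these had features over 1 apart at one time or both. Among them were TRIM28, ATRX, CBX1, EHMT2, MPHOSPH8, RBBP4, RIF1, SUMO2, TASOR, UHRF1 and ZNF445, whose means above join unequal features. The gap was widest at 48 h for RIF1 (3.67) and RBBP4 (2.87).

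**Figure D5:**
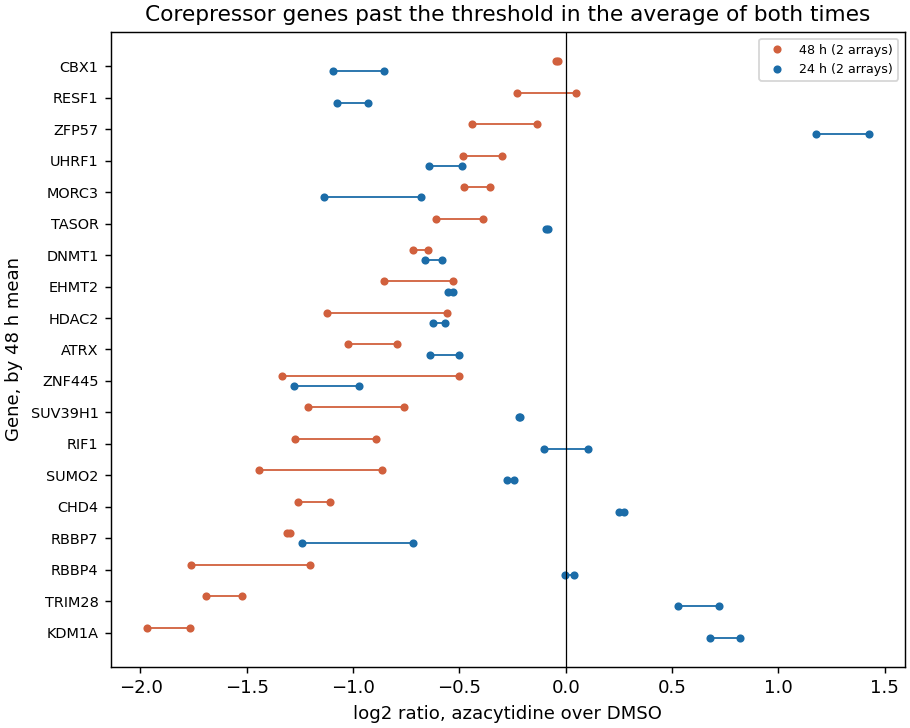
Log2 ratio of azacytidine over DMSO on each array (x axis) for the 19 genes of the corepressor list that passed the limma test in the average of both times (y axis, ordered by the 48 h mean); orange is 48 h and blue 24 h, 2 arrays each. KDM1A and TRIM28 lie lowest at 48 h and above 0 at 24 h, and DNMT1 is below 0 on all 4 arrays.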

How the data were processed

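Log10 ratios of 45220 array features were deposited by the authors, 43376 of them measured on each of the 4 arrays and 1844 blank. Agilent Feature Extraction 8.5.1.1 is named in the submitters' processing notes, and its settings are not given in the sources used here. Base and direction were read from the software's convention and the dyes in the labels, and the log10 values were multiplied by 3.32 to give log2. Each column's median was 0, and whether the columns were centred is not known. Between 6011 and 6695 features per array were listed at exactly 0. Intensities were not analysed here, and the number of arrays limits the precision.

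Features with 1 gene symbol in the platform annotation (31332, with 93 of several symbols and 11951 of none left out) were averaged by gene, with symbols updated through the gene table of GRCh38.p14 (0 changed). Of the 18334 genes, 1089 stood at 0 on all arrays, 0 of them listed zinc finger genes. Replicate arrays correlated with r = 0.873 at 48 h and r = 0.917 at 24 h, across genes, which are not independent.

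The fit over all genes used limma 3.58.1 (R 4.3.3), 1 mean per time over the 4 arrays, 2 residual and 0.735 prior degrees of freedom, and Benjamini-Hochberg adjustment over all genes. The fit was run on simulated data that gave each gene the same spread at both times. In the real data the 48 h replicates lay further apart, so the simulation cannot show how the calls fare with unequal spreads. Same-numbered replicates did not deviate together (r = -0.03 across genes). With 2 arrays per time this cannot show whether the numbers pair the arrays. The fit took the arrays as unpaired, and a fit with a replicate block is given below. All listed genes are named, with values by array for those past the threshold at either time or in the difference and for the highest and lowest 5 at each time. Corepressors past the threshold in the average are named, with TRIM28 and DNMT1, and other zinc finger genes only as close paralogs. SETDB1, MPHOSPH8, DNMT3B and MTA2, and the array values of ZNF154, ZNF671 and ZNF274, were added after their values were seen. The listed genes, the gene lists and the tests were chosen with earlier results of these data known. Gene order, promoters and motifs came from the RefSeq tables, with the first listed entry for the 3 genes that had several. Figures were drawn with matplotlib 3.10.9.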

Additional observations from a re-analysis of the deposited data

Results flagged for a closer look

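The ratio of azacytidine over DMSO differed between 48 h and 24 h, by the limma test of the difference itself (log2, 48 h minus 24 h), for 10 of the 39 zinc finger genes, compared with 23% of all genes. It was higher at 48 h for ZNF417 (1.89), ZNF256 (1.27), ZNF814 (1.03), ZNF471 (0.84), ZNF135 (0.79), ZNF304 (0.61) and ZNF606 (0.58). It was lower at 48 h for ZNF582 (-2.13), ZNF17 (-1.47) and ZNF132 (-1.19). ZNF17 rests on 2 features of opposite sign, and without it 9 genes differed, 2 of them lower at 48 h. With 2 arrays per time no array could be set apart from its group.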

How the results depend on the processing

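None of the 31 calls among single genes (12 at 48 h, 9 at 24 h and 10 in the difference) changed sign under any setting run, but all ended in some. Some settings, among them the replicate block and robust variance moderation, keep the same mean ratios, so no sign could change there. With a replicate block, limma called 0 genes in each of the 4 comparisons (48 h 19, 24 h 14, average 15 and difference 16 at an unadjusted p under 0.05, and 0 calls among all genes). Leaving out one array at a time gave 0 to 19 genes at 48 h, 0 to 14 at 24 h, 0 to 15 for the average and 0 to 20 for the difference. The 48 h arrays alone gave 0 at 48 h (11 at an unadjusted p under 0.05, and 0 calls among all genes). The 24 h arrays alone gave 14 at 24 h (35.9%, with 36.3% of all genes). Arrays scaled to one spread gave 16 genes at 24 h (41%, with 41% of all genes), a median of -0.26 and 20 differences (51.3%, with 36.1%). Quantile normalization gave 17 (43.6%, with 40.3%), -0.32 and 20 (51.3%, with 37.5%). Without features at exactly 0 there were 17 differences (43.6%, with 47.3% of all genes), and with robust variance moderation 6 (15.4%, with 14.2%). With features in place of genes, which was added once the data had been seen, 6 genes had every feature called one way in the average. The median stayed between 0.07 and 0.14 at 48 h and between -0.32 and -0.21 at 24 h. The median of features, accessions averaged first, centring, and leaving out genes listed at 0 throughout (also added later) kept each count within 1.5 times. The share of all genes moved more in the last of these. It gave 8 genes at 24 h (20.5%, with 32.8% of all genes) and 18 at 48 h (46.2%, with 49.5%). Without features at exactly 0 there were 11 at 24 h (28.2%, with 38.2%). Beyond the arrays' number and spread, causes were not tested.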
